A study of Mus musculus with 16 samples.

Results

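The comparison described here set mouse TM4 cells that had received a plasmid encoding *gdf6Y* (5 samples, replicates 1 to 5) against TM4 cells that had received an empty vector (EV, 6 samples, replicates 1 to 6). Its members were all genes whose counts averaged 10 or more over these 11 samples, which were 12587 of the 26316 genes with at least 1 count in any of them and of the 56748 genes in the count table. TM4 is an established mouse cell line of Sertoli origin, the somatic cells that nurse the germ line in the testis tubule. The vector of the EV samples was pcDNA3.1-HA without an insert, and *gdf6Y* is the male-specific growth factor gene of the killifish *Nothobranchius furzeri*. Each well received 2.5 µg of plasmid with Lipofectamine 3000, and RNA was taken 24 h later, so that all groups share the plasmid mass, the transfection and the harvest time. Whether the plasmids with an insert have the backbone of the EV plasmid was not stated. A further 5 samples received *gdf6Y* with an in-frame deletion in the prodomain (del9) and are used below only to place the *gdf6Y* values. The share of cells that took up the plasmid was not given, and the killifish transcript cannot be read from a table of mouse genes. Mouse *Gdf6* itself had no count in any sample.

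Gdf6 belongs to the bone morphogenetic proteins (BMPs), secreted dimers that bind pairs of type I and type II serine/threonine kinase receptors. The activated type I receptor phosphorylates Smad1, Smad5 or Smad9, which enter the nucleus with Smad4 and switch on genes such as the Id genes and the inhibitory Smads. The sister branch, used by TGF-β and activin, runs through Smad2 and Smad3. Plasmid DNA in the cytosol can itself be sensed by cells and can raise interferon and NF-κB target genes, and here all groups received plasmid.

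Between 21486850 and 25844048 reads per EV sample and between 22349497 and 26444903 per *gdf6Y* sample were counted on genes. Levels are given as normalized counts, each count being divided by its TMM-scaled library size and multiplied by the mean of that size over all samples. Of the Sertoli markers, *Gata4* was at 831 ± 6.04 (SD, n = 6) normalized counts in EV and *Kitl* at 707 ± 19.6 (SD, n = 6), whereas *Sox9* was at 43.0 ± 5.39 (SD, n = 6), *Amh* at 5.49 ± 1.41 (SD, n = 6), and *Wt1* and *Dmrt1* had no count in any of the 11 samples. Of 19 leukocyte markers, 10 had no count, 2 (*Cd68* and *Cd14*) had a mean count of at least 10, and the summed level of the list ranged from 493 to 775 in EV and from 550 to 726 in *gdf6Y*. None of 15 germ cell markers (summed level 2.87 to 6.82 in EV and 0 to 9.66 in *gdf6Y*, 7 without a count) and none of 14 endothelial and epithelial markers (10.7 to 26.6 and 10.9 to 25.1, 3 without a count) reached a mean count of 10, and 2 of 9 Leydig markers (*Star* and *Cyp11b1*) did, with sums of 195 to 244 in EV and 189 to 241 in *gdf6Y*. The 100 most abundant genes took 16.5% ± 0.105 (SD, n = 6) of the counts in EV and 17.0% ± 0.206 (SD, n = 5) in *gdf6Y* (exact permutation test, two-sided, p = 0.00216, the smallest this design allows). The labels do not say that replicates were separate cultures, so p-values refer to these samples only, whose spread may be technical.

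By the quasi-likelihood test of edgeR with p-values adjusted after Benjamini and Hochberg, used for every adjusted p below unless DESeq2 is named, 441 of the 12587 genes (3.50%) were upregulated and 884 (7.02%) were downregulated in *gdf6Y* at an adjusted p below 0.05. Most of these differences were small. Log2 fold changes against EV are given below with the ± SE of edgeR. That SE does not follow the spread of each gene closely. For *Dst*, which varied widely within *gdf6Y*, it was 0.032 against 0.15 in DESeq2. For *Hspg2* it was 0.029 against 0.13, and for *Gata4* it was 0.041 in both. For genes that vary between samples, ± SE below may thus understate the spread, and the adjusted p of edgeR may be far too small. For *Hspg2* the adjusted p was 1.11e-27 in edgeR and 0.0499 in DESeq2. For *Dst* it was 4.89e-20 in edgeR and 0.15 in DESeq2. The median log2 fold change was 0.12 among the upregulated genes and -0.15 among the downregulated genes, and 35 and 119 of them lay beyond 0.25 on the log2 scale. Only 10 upregulated and 16 downregulated genes lay beyond 0.5. The EV and *gdf6Y* samples did not overlap for 659 of the 12587 genes, including 175 that were upregulated and 259 that were downregulated. Since whole wells were measured, a lower level per cell and fewer cells with the transcript cannot be told apart. In the same test, 128 genes (1.02%) were higher and 105 (0.834%) lower in *gdf6Y* than in del9, and 1254 (9.96%) were higher and 1050 (8.34%) lower in del9 than in EV. Both comparisons with EV use the same 6 EV samples, and both comparisons of *gdf6Y* the same 5 *gdf6Y* samples, so their values are set side by side below and not taken as independent.

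The genes were described through 52 functional lists, which held 1477 of the 12587 genes and 380 of the 1325 called genes. Transcripts of BMP effectors, cytosolic ribosomal proteins and the mitochondrial genome were among the lists with the largest share of upregulated members. Giant scaffold proteins, interferon-stimulated genes, matrix glycoproteins, integrins and inflammatory cytokines were among those with the largest share of downregulated members. Some of these shares depended on the fit. With the length correction described below, 23.5% of the cytosolic ribosomal protein genes rose, against 61.7% without it. DESeq2 called none of the 7 mitochondrially encoded genes higher. It called 18 of 39 giant scaffold genes and 2 of 28 inflammatory genes lower.

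The log2 fold changes followed the exonic length of the genes. This length counts every base in any annotated exon of a gene, so it can exceed that of its transcripts. Downregulated genes had a median exonic length of 11019.5 bases and upregulated genes one of 3784 bases, against 6145 for all. Across the 12551 genes with a known length, Spearman's rho between exonic length and log2 fold change was -0.31, a description over genes that share the same libraries. In the shortest quintile of the genes 7.17% were upregulated and 1.15% downregulated, and in the longest quintile 0.598% were upregulated and 19.8% downregulated. The slope of each library on log2 length, relative to the mean of the 11 samples, was 0.0121 ± 0.00371 (SD, n = 6) in EV and -0.0146 ± 0.0116 (SD, n = 5) in *gdf6Y*, without overlap (exact permutation test, two-sided, p = 0.00216, the smallest this design allows). The lowest slope, -0.0344, was that of *gdf6Y* replicate 5. For del9 against EV rho was -0.23, and for *gdf6Y* against del9 it was -0.07. RNA integrity and fragment lengths were not in the files used here, so how the libraries came to differ in this slope was not tested. When a smooth trend on length was taken out of each library, 492 genes (3.91%) were upregulated and 605 (4.81%) downregulated. Of the genes called without this correction, in all 26316 genes tested, 259 of 448 upregulated and 553 of 890 downregulated genes were also called with it. Counts of called list members below are without the correction unless it is named. They stand beside 3.50% of all genes upregulated and 7.02% downregulated, or 3.91% and 4.81% with the correction.

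Of the 19 BMP effectors and feedback genes, 8 were upregulated and none was downregulated, and the median log2 fold change of the list was 0.13, against 0.000847 over all genes. The members were *Id1*, *Id2*, *Id3*, *Atoh8*, *Smad6*, *Smad7*, *Smad9* and *Msx1*, and all but *Msx1* were also higher in *gdf6Y* than in del9. From these cells the paper had already reported the rise of *Id1*, *Id2*, *Id3*, *Smad6*, *Smad7* and *Smad9*. Smad9 is the receptor-activated Smad whose own gene is induced by BMP signals in many cells. *Smad9* was at 238, 238, 262, 247 and 237 normalized counts in *gdf6Y* replicates 1 to 5, against 138 to 166 (median 156) in EV, and its log2 fold change was 0.65 ± 0.072 (adjusted p = 8.08e-16). *Smad6*, an inhibitory Smad, was at 374, 261, 323, 304 and 305 in *gdf6Y* and at 218 to 244 (median 228) in EV. The *gdf6Y* samples lay above all EV samples for both genes, by a wide margin for *Smad9* and by little for *Smad6* replicate 2. *Id1*, a helix-loop-helix protein that blocks E-proteins, had the smallest adjusted p of all genes (2.72e-102), at a log2 fold change of 0.90 ± 0.035.

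Among 18 receptors and Smads of both branches none was upregulated and 3 were downregulated, namely *Bmpr2*, *Tgfbr2* and *Tgfbr3*. *Bmpr2*, a type II receptor for BMPs with an exonic length of 18066 bases, was at 3042, 2665, 2566, 2734 and 2432 in *gdf6Y* and at 2945 to 3308 (median 3207) in EV, a log2 fold change of -0.24 ± 0.031 (adjusted p = 9.44e-12), with overlap through *gdf6Y* replicate 1. It was also lower in del9 than in EV (log2 fold change -0.20). *Tgfbr2*, the type II receptor for TGF-β, fell from 6349 ± 81.2 (SD, n = 6) to 5786 ± 163 (SD, n = 5), without overlap, and was lower than in del9 as well (log2 fold change -0.14, adjusted p = 0.00159). Its fall in these cells had already been reported by the paper. *Tgfbr3*, the betaglycan co-receptor, had a log2 fold change of -0.15 ± 0.03 against EV and 0.09 (adjusted p = 0.200) against del9, and it was not called when only genes with larger counts were tested. The signal-carrying Smads did not pass the test: log2 fold changes were 0.02 for *Smad1* (SE 0.0428, adjusted p = 0.807), 0.01 for *Smad5* (SE 0.0322, adjusted p = 0.951) and -0.04 for *Smad4* (SE 0.0297, adjusted p = 0.570).

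Of 22 targets of the Smad2/3 branch, 5 were upregulated (*Klf10*, *Snai1*, *Tagln*, *Cdkn1a* and *Pmepa1*) and 3 downregulated (*Thbs1*, *Fn1* and *Bhlhe40*). *Klf10* is a zinc-finger gene first described as an early response to TGF-β. It was at 1090.1, 1294, 1194, 1243 and 1237 in *gdf6Y* and at 925 to 1099 (median 1014) in EV, with a log2 fold change of 0.27 ± 0.037 against EV (adjusted p = 2.98e-10) and 0.29 against del9 (adjusted p = 3.82e-10). *Snai1*, a repressor of epithelial genes, was at 668, 602, 660.5, 638 and 681 in *gdf6Y*, above every EV sample (508 to 565, median 547), and its log2 fold change was 0.27 ± 0.046 against EV and 0.19 against del9. The TGF-β targets *Ccn2* and *Col1a1* did not pass the test, unlike the abundant *Thbs1* and *Fn1*: log2 fold changes were 0.01 for *Ccn2* (SE 0.0240, adjusted p = 0.833) and -0.02 for *Col1a1* (SE 0.0234, adjusted p = 0.620). *Thbs1*, the matrix protein thrombospondin, fell from 32771 ± 1248 (SD, n = 6) to 27850.0 ± 1409.9 (SD, n = 5), a log2 fold change of -0.23 ± 0.024, and was at 27516 ± 831 (SD, n = 5) in del9. *Cdkn1a* and *Fn1* were called by edgeR and not by DESeq2 (adjusted p = 0.472 and 0.102), and the *Cdkn1a* call was also lost without *gdf6Y* replicate 4 (adjusted p = 0.0505).

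Guidance cues and their receptors, which steer growing axons and also sit on many mesenchymal cells, held several genes that differed from both EV and del9. Of 36 members, 2 were upregulated and 10 downregulated. *Tenm4* (chr7:95820453-96560300, plus strand, GRCm39) encodes teneurin-4, a large transmembrane adhesion protein. It was at 1238, 826, 920.3, 998 and 800.4 in *gdf6Y* and at 1269.8 to 1573 (median 1421) in EV, a log2 fold change of -0.59 ± 0.038 (adjusted p = 5.99e-42). Every *gdf6Y* sample was below every EV sample, replicate 1 least so. Against del9, at 1338 ± 72.2 (SD, n = 5), the log2 fold change was -0.48 (adjusted p = 1.47e-28), and with the length correction it was -0.50 against EV (adjusted p = 1.55e-40). *Sema5a* (chr15:32244919-32696487, plus strand), a transmembrane semaphorin, was at 2793, 2256, 2349.8, 2389 and 2182 in *gdf6Y* against 2981 to 3284 (median 3112) in EV. Its log2 fold change was -0.37 ± 0.031 against EV (adjusted p = 2.47e-27), -0.29 with the length correction and -0.22 against del9 (adjusted p = 9.29e-08).

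*Unc5b* (chr10:60598372-60667396, minus strand) moved the other way, as the paper had also reported. It encodes a netrin receptor, and it was at 3942, 3805, 3687, 3807 and 3730.4 in *gdf6Y* against 2766 to 3122 (median 2890.3) in EV, with the groups far apart. The log2 fold change was 0.39 ± 0.029 against EV (adjusted p = 2.58e-32) and 0.31 against del9 (adjusted p = 2.77e-18). *Flrt2*, a ligand of Unc5 receptors, had a log2 fold change of -0.21 ± 0.034 against EV and -0.20 against del9 (adjusted p = 4.09e-05). *Nrn1*, a GPI-anchored neurite growth protein outside the list, was at 5099, 4391, 5081, 5267 and 4788 in *gdf6Y* against 3603 to 4216 (median 3978) in EV, also without overlap, and its log2 fold change was 0.33 ± 0.029 in the comparison with EV and 0.36 in that with del9. *Slit2*, a repellent ligand with an exonic length of 32191 bases, had a log2 fold change of -0.17 ± 0.035 that became -0.05 with the length correction (adjusted p = 0.588), and *Neo1*, *Slit3* and *Plxna1* lost their call with it too. Without *gdf6Y* replicate 5, 4 members were downregulated, and 6 were when only genes with larger counts were tested. *Efnb2*, the other upregulated member, was at 831 ± 52.4 (SD, n = 5) in *gdf6Y* and at 863 ± 60.1 (SD, n = 5) in del9, and was higher than EV in both.

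**Figure D1:**
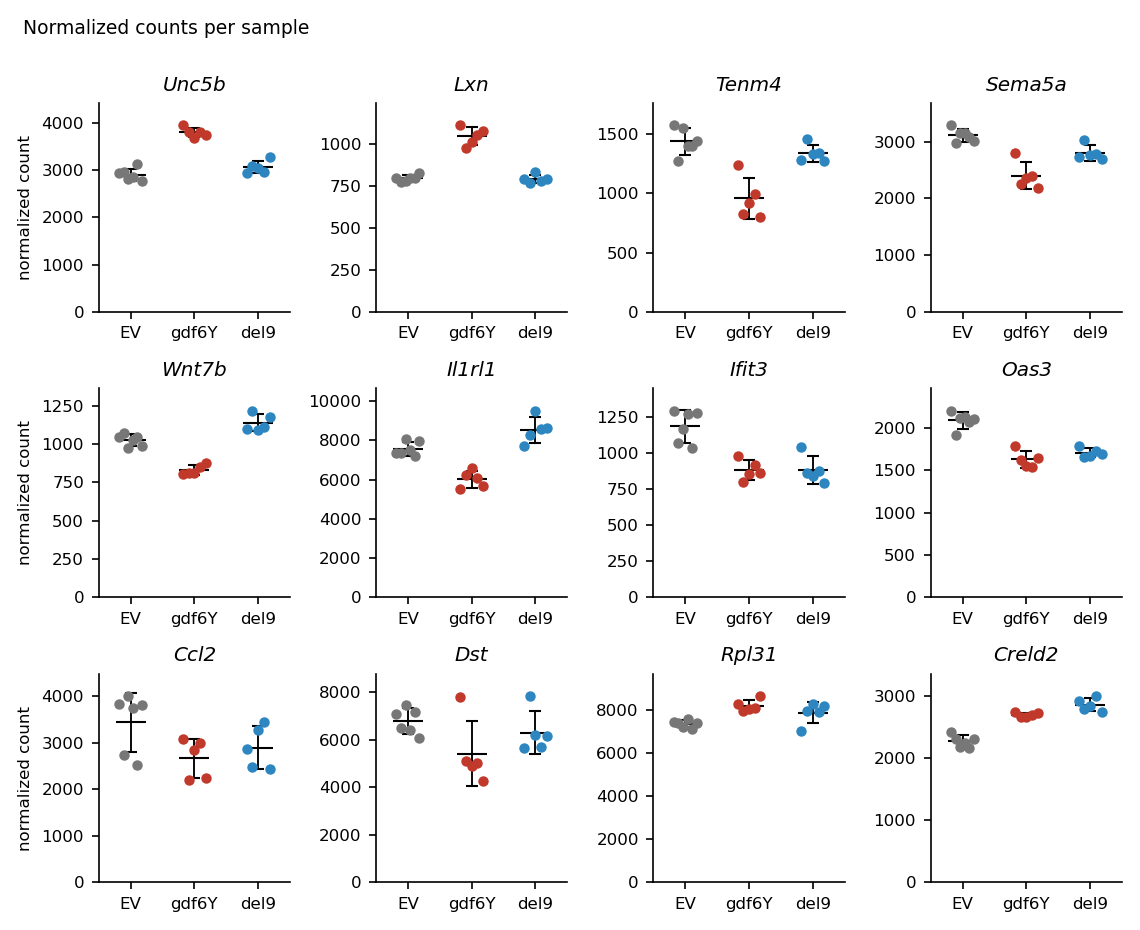
Each panel plots the normalized count of 1 gene in every EV (6), *gdf6Y* (5) and del9 (5) sample, with the mean and SD of each group as a line with whiskers, on a linear axis from 0. *Unc5b*, *Lxn*, *Tenm4*, *Sema5a*, *Wnt7b* and *Il1rl1* differ from both other groups, whereas *Ifit3*, *Oas3*, *Rpl31* and *Creld2* differ from EV and lie near del9; in *Dst*, *gdf6Y* replicate 1 stands at 7778 above the other 4.

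Of 26 Wnt pathway genes, 1 (3.85%) was upregulated and 4 (15.4%) were downregulated, beside 3.50% and 7.02% of all genes. Of the 4, *Apc* and *Lrp6* lost their call with the length correction. *Wnt7b*, a secreted Wnt ligand, was at 805, 808, 808, 847 and 877 in *gdf6Y* and at 975 to 1071 (median 1036) in EV, without overlap. Its log2 fold change was -0.30 ± 0.039 against EV (adjusted p = 7.90e-12) and -0.45 against del9 (adjusted p = 1.45e-23), and del9 was higher than EV (log2 fold change 0.15). *Dkk2*, a Wnt antagonist, had a log2 fold change of -0.17 ± 0.031 against EV, was not called by DESeq2 (adjusted p = 0.0951), and had 0.05 against del9 (adjusted p = 0.654). In the Notch list of 16 genes, 1 rose and 3 fell. *Hes1*, the repressor that Notch and several other signals induce, was at 184, 235, 227, 219 and 197 in *gdf6Y* against 135 to 183 (median 158) in EV, and its log2 fold change was 0.44 ± 0.075 against EV (adjusted p = 1.07e-06) and 0.25 against del9 (adjusted p = 0.0770). The gap between the lowest *gdf6Y* and the highest EV sample of *Hes1* was about 1 normalized count. *Notch2*, a receptor, and *Rbpj*, the DNA-binding partner of the cleaved receptor, had log2 fold changes of -0.22 ± 0.032 and -0.22 ± 0.031 against EV. *Dlk2*, a noncanonical Notch ligand outside the list, had 0.42 ± 0.063 against EV and 0.20 (adjusted p = 0.126) against del9.

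Of 16 gonad and Sertoli genes, 2 rose and 5 fell, or 3 without *gdf6Y* replicate 2. Of the members that rose, *Lxn*, an inhibitor of carboxypeptidases, was already named by the paper as upregulated by *gdf6Y* in these TM4 cells. Its rise therefore says nothing new about gonad genes as a class, and the other such member was *Nr2f2*. *Lxn* was at 1111, 976, 1012, 1052 and 1079 in *gdf6Y* against 775 to 827 (median 796) in EV. Its log2 fold change was 0.40 ± 0.039 against EV (adjusted p = 9.76e-20) and 0.41 against del9 (adjusted p = 3.69e-18). *Gata4*, a transcription factor of the gonadal soma, was at 715, 754, 721, 718 and 704 in *gdf6Y* against 822 to 840.4 (median 831) in EV. The groups did not overlap, and the log2 fold change was -0.20 ± 0.041 against EV (adjusted p = 9.98e-05), with -0.13 (adjusted p = 0.221) against del9. Other members that fell included *Zfpm2*, *Inhbb* and *Inhba*. *Nr2f2*, the nuclear receptor COUP-TFII, had a log2 fold change of 0.10 ± 0.032 (adjusted p = 0.0421), which DESeq2 did not call (adjusted p = 0.0772) and which was lost in 6 of the 11 fits with a sample left out (adjusted p up to 0.262). *Sox9* had -0.04 (adjusted p = 0.945). Of 32 Hox genes 2 rose (6.25%, beside 3.50% of all genes), *Hoxa9* and *Hoxa10*, with log2 fold changes of 0.13 ± 0.042 and 0.13 ± 0.037. Both were also higher than in del9 (log2 fold changes 0.22 and 0.20), but against EV the calls were lost in 6 and 3 of the 11 fits with a sample left out, and neither was called without EV replicate 5 or *gdf6Y* replicate 4.

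Genes induced by type I interferon, which code for antiviral effectors, sensors and the factors that relay the signal, included many downregulated members. Of 69 members 31 fell and 1 rose, and the median log2 fold change of the list was -0.12. *Ifit3*, an RNA-binding antiviral protein, was at 976, 796, 854, 916 and 858 in *gdf6Y* against 1033 to 1292 (median 1217) in EV, a log2 fold change of -0.42 ± 0.039 (adjusted p = 1.07e-22). *Rsad2* (viperin), an antiviral radical enzyme, was at 1908, 1600.3, 1716, 1888 and 1639 against 2012 to 2527 (median 2354) in EV. *Oas3*, a sensor that makes oligoadenylate on double-stranded RNA, was at 1791, 1622, 1554, 1539 and 1651 against 1917 to 2205 (median 2112). All 3 genes were lower in each *gdf6Y* sample than in any EV sample. *Zbp1*, a sensor of left-handed nucleic acids, had a log2 fold change of -0.40 ± 0.041 and *Rigi*, a sensor of viral RNA, one of -0.17 ± 0.029. *Stat2*, which relays the interferon signal, had -0.25 ± 0.033, with overlapping groups. The sole member that rose was *Ifi27*, at a log2 fold change of 0.14 ± 0.032 (adjusted p = 0.00109).

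Not all defining members were called. *Isg15*, the ubiquitin-like modifier, had a log2 fold change of -0.08 (SE 0.0293, adjusted p = 0.129) and *Irf9* -0.08 (SE 0.0337, adjusted p = 0.210). *Irf7*, a factor that amplifies the response, fell by 0.13 on the log2 scale (adjusted p = 0.00186). The interferon genes themselves were near the floor of detection, with *Ifnb1* at 3.01 ± 1.61 (SD, n = 6) normalized counts in EV and 2.40 ± 2.06 (SD, n = 5) in *gdf6Y*. With the length correction 37 members fell, and with single samples left out 27 to 35 did. Against del9, 1 of the 69 members was lower (*Parp14*) and 1 higher (*Ifi205*), at a median of 0.00416, and in del9 against EV 38 fell. For *Ifit3*, the log2 fold change of *gdf6Y* against del9 was 0.00416 (SE 0.043, adjusted p = 0.988) and that of del9 against EV was -0.42.

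Promoters of such genes often hold an interferon-stimulated response element, the site bound by Irf factors and by the complex that holds Stat2 and Irf9. The letters TTTC followed, after any 2 bases, by TTTC again were searched on both strands of the 300 bases around each start (250 before and 50 after, RefSeq, GRCm38.p6). They occurred in 1079 of the 27025 genes with a promoter in the table (3.99%) and in 350 of the 9229 genes of this comparison that matched one (3.79%). Of the 53 matched interferon-stimulated genes 24 held them (45.3%), as did 8 of the 23 downregulated ones (34.8%). They occurred in 39 of the 675 matched genes that were downregulated overall (5.78%) and in 13 of the 334 that were upregulated (3.89%). A match is a run of letters and not a shown site. The windows below are those of 7 downregulated genes described here, 4 interferon-stimulated genes and 3 GTPases, that held a match, and they are shown because their values differ from EV; named genes that held the letters and have no window here include *Isg15*, *Ifi205* and *Mrpl20*. They are printed on the strand of the gene from 25 bases before to 25 bases after the match, with the matched letters in capitals. Where the capitals begin with GAAA the match lies on the opposite strand.
Ifit3: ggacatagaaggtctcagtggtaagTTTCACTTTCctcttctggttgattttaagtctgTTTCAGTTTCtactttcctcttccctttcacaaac
Oas3: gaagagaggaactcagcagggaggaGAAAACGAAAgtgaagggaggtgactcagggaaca
Rsad2: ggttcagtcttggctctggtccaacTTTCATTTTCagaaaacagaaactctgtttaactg
Stat2: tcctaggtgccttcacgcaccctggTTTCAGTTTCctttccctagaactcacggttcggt
Gbp2: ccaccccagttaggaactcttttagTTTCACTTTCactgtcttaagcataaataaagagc
Gbp3: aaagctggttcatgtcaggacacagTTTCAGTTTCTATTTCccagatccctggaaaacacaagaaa
Irgm2: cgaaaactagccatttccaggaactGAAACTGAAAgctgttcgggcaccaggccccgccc
In GRCm38.p6 these windows are chr19:34583348-34583441 (plus strand), chr5:120777700-120777759 (minus), chr12:26456538-26456597 (minus), chr10:128270251-128270310 (plus), chr3:142620579-142620638 (plus), chr3:142559974-142560039 (plus) and chr11:58214888-58214947 (plus). *Ifit3* holds 2 matches and *Gbp3* holds 2 that overlap.

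Guanylate-binding proteins and immunity-related GTPases, which attack vacuoles of intracellular pathogens and are best known as targets of interferon-γ, also held downregulated members. Of 13 members 5 fell and none rose, and the median log2 fold change was -0.18. *Gbp2* was at 624, 538, 613, 627 and 615 in *gdf6Y* against 722 to 818 (median 764) in EV, a log2 fold change of -0.34 ± 0.044 (adjusted p = 9.79e-12), and at 551 ± 38.0 (SD, n = 5) in del9. *Gbp3* and *Irgm2* had log2 fold changes of -0.17 ± 0.032 and -0.22 ± 0.054, without overlap of the groups. The letters above occurred in 9 of the 10 members matched to a promoter, including the 3 named. Against del9 the median log2 fold change of the list was 0.06. *Ifng* was at 1.01 ± 0.608 (SD, n = 6) in EV and 1.19 ± 0.801 (SD, n = 5) in *gdf6Y*. With the length correction 4 members fell, and 3 did without EV replicate 1 or 4 or without *gdf6Y* replicate 3, 4 or 5. In 22 genes of antigen processing and MHC class I 1 rose (4.55%) and 2 fell (9.09%). None rose and 6 fell with the length correction, and 1 fell without EV replicate 1 or *gdf6Y* replicate 5. In 26 genes of nucleic acid sensing 1 rose (3.85%) and 3 fell (11.5%). Over all genes the shares were 3.50% and 7.02%.

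Of 28 NF-κB targets and inflammatory cytokines, 10 fell and 3 rose. Among the members that fell were 5 chemokines, and *Ccl2* varied between samples of the same group. *Ccl2*, which attracts monocytes, was at 3077, 2208, 2840.3, 3008 and 2242 in *gdf6Y* replicates 1 to 5 and at 3839, 2732, 4009, 3751, 2528 and 3806 in EV replicates 1 to 6. Replicates 2 and 5 were the lowest of both groups, and the groups overlapped. Every *gdf6Y* sample was below the EV sample of its number, but the numbers were not taken as pairs. The log2 fold change was -0.36 ± 0.035 in edgeR (adjusted p = 6.52e-21), and DESeq2 did not call it (adjusted p = 0.0875). *Ccl5* and *Ccl7* had log2 fold changes of -0.28 ± 0.032 and -0.21 ± 0.035, likewise not called by DESeq2 (adjusted p = 0.140 and 0.380). *Cxcl1*, a neutrophil chemokine, was at 190.2, 156, 216, 221 and 145 in *gdf6Y* against 198 to 311 (median 279) in EV, with overlap, and its log2 fold change of -0.51 ± 0.07 passed both tests. *Il6* had 0.07 (SE 0.143, adjusted p = 0.869). In the other direction, *Nfkbia*, which encodes the inhibitor that NF-κB itself induces, rose by 0.17 ± 0.037 on the log2 scale and *Csf1*, the macrophage growth factor, by 0.10 ± 0.027. DESeq2 called 2 members lower, and 4 fell when only genes with larger counts were tested, against 10 in the full fit.

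*Il1rl1*, the receptor for interleukin-33, was among the genes with the smallest adjusted p. It was at 5499.8, 6222, 6583, 6078 and 5674 in *gdf6Y* against 7199 to 8048 (median 7429.8) in EV, a log2 fold change of -0.33 ± 0.027 (adjusted p = 2.47e-27). Del9 was higher than EV, at 8536 ± 660.5 (SD, n = 5), and relative to del9 *gdf6Y* had a log2 fold change of -0.50 (adjusted p = 5.09e-56). Its ligand *Il33* showed the same order, at log2 fold changes of -0.17 relative to EV and -0.43 relative to del9. Of 28 SOCS and cytokine feedback genes 1 rose and 7 fell, 4 with the length correction. *Socs3*, which brakes signals through gp130, and *Osmr*, the oncostatin M receptor, had log2 fold changes of -0.19 ± 0.035 and -0.20 ± 0.036 against EV. *Socs2*, a brake on growth hormone signals, rose by 0.12 ± 0.034 and was higher than del9 by 0.18 (adjusted p = 3.20e-04).

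Many transcripts of extracellular matrix proteins were lower in *gdf6Y*, and many of them are long. Of 31 basement membrane and matrix glycoproteins, with a median exonic length of 8184 bases, 13 fell and 1 rose. *Hspg2*, the basement membrane proteoglycan perlecan, was at 11850.1, 8478, 8289, 7464 and 7276 in *gdf6Y* against 10277 to 11962 (median 11171) in EV, a log2 fold change of -0.36 ± 0.029. Replicate 1 of *gdf6Y* was within the EV range and the other 4 were below it. *Fbn1*, the microfibril protein fibrillin-1, had a log2 fold change of -0.30 ± 0.033, and its replicate 1 was at 2623 against 1808 to 1969 in the others. *Vcan*, the proteoglycan versican, had -0.30 ± 0.029 and *Tnc*, tenascin-C, -0.24. With the length correction 12 members fell. *Hspg2* and *Tnc* were also lower in *gdf6Y* than in del9 (log2 fold changes -0.16 and -0.16). *Efemp2*, a fibulin needed for elastic fibres, was the member that rose, by 0.11 ± 0.029 on the log2 scale. *Hmcn1*, a giant matrix immunoglobulin protein outside the list, was at 277, 184, 202, 174 and 184 in *gdf6Y* against 283 to 346 (median 321) in EV. Among genes averaging at least 50 counts whose groups did not overlap it had the most negative log2 fold change, -0.64 ± 0.065 against EV and -0.38 against del9 (adjusted p = 2.00e-05).

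Of 34 integrin and focal adhesion genes, 14 fell and none rose, and 8 fell with the length correction. *Itgb8*, an integrin subunit that activates latent TGF-β, was at 485, 374, 405, 407 and 365 in *gdf6Y* against 498 to 547 (median 513) in EV, without overlap, and kept its call with the correction (log2 fold change -0.35 ± 0.051 without and -0.31 with it). *Flnc*, filamin C, had -0.19 ± 0.025 against EV and -0.17 (adjusted p = 2.00e-06) against del9. Of 19 collagens 5 fell and 1 rose; with *gdf6Y* replicate 5 or with EV replicate 1 left out 1 fell, without EV replicate 3 or 4 or *gdf6Y* replicate 2, 3 or 4 the number was 2 or 3, and with the length correction 3 did. *Col6a3* had a log2 fold change of -0.21 ± 0.03 and *Col3a1* rose by 0.12 ± 0.027. Of 33 matrix proteases and inhibitors 4 fell (12.1%, beside 7.02% of all genes), among them *Mmp19* (log2 fold change -0.21 ± 0.037) and *Plat*, tissue plasminogen activator (-0.20 ± 0.033, not called by DESeq2, adjusted p = 0.118). Of 23 Hippo and YAP targets 6 fell, or 4 with the length correction, 2 without *gdf6Y* replicate 5 and 3 without EV replicate 3 or *gdf6Y* replicate 3, among them *Tead1*, the DNA-binding partner of YAP (-0.20 ± 0.028). Of 26 junction genes 5 fell, or 3 with the length correction or without *gdf6Y* replicate 5, among them *Tjp1*, which encodes the tight junction scaffold ZO-1 (-0.19 ± 0.029).

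Giant scaffold and cytoskeletal linker genes, whose median exonic length was 19542 bases, showed the largest share of downregulated members, 37 of 39, at a median log2 fold change of -0.25. The EV and *gdf6Y* samples did not overlap for 3 of the 39, beside 659 of all 12587 genes. *Plec*, plectin, which ties intermediate filaments to other structures, was at 13583, 13602, 12867, 11422 and 11803 in *gdf6Y* against 14549.9 to 16824 (median 15305) in EV. Its groups did not overlap, with a log2 fold change of -0.29 ± 0.026 against EV (adjusted p = 3.94e-23) and -0.17 against del9 (adjusted p = 1.88e-06). *Dst*, dystonin, another linker of that family, was at 7778, 5084, 4894, 4994 and 4257 in *gdf6Y* against 6081 to 7441 (median 6775) in EV. Its replicate 1 exceeded every EV sample while the other 4 were below all of them. In *Ahnak* the split was the same, with replicate 1 at 20742, and in *Dync1h1*, the dynein heavy chain, replicate 1 was at 9925, within the EV range, and the other 4 below it. With the length correction 30 members were downregulated, at a median of -0.14. DESeq2 called 18 and did not call *Dst*, *Dync1h1* and *Ahnak* (adjusted p = 0.147, 0.0854 and 0.0918). Against del9, 9 members were lower, among them *Plec*, *Dst*, *Macf1* and *Lrp1*, and in del9 against EV 31 were lower. Of 32 contractile and smooth muscle genes 6 rose and 3 fell; 3 rose without *gdf6Y* replicate 5, 5 fell without *gdf6Y* replicate 1, and 4 rose and 2 fell with the length correction. *Myh9*, the nonmuscle myosin heavy chain, had a log2 fold change of -0.15 ± 0.024.

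Among ribosomal proteins, whose transcripts are short and abundant, the called genes were all upregulated, by small amounts. Of 81 cytosolic ribosomal protein genes, with a median exonic length of 2829 bases, 50 rose and none fell. The groups did not overlap for 37 of them, beside 659 of all 12587 genes. The median log2 fold change was 0.08. *Rpl31* was at 8267, 7948, 8053, 8102 and 8654 in *gdf6Y* against 7133 to 7594 (median 7399) in EV, a log2 fold change of 0.16 ± 0.026 (adjusted p = 5.55e-07). *Rpl11* and *Rps14* had 0.14 ± 0.026 and 0.13 ± 0.025. With the length correction 19 members were called, at a median of 0.05, and without *gdf6Y* replicate 5 30 were. Against del9 the median of the list was 0.00366, and 53 were higher in del9 than in EV. Of 77 mitochondrial ribosomal protein genes 13 rose, or 5 without *gdf6Y* replicate 5 and 6 without *gdf6Y* replicate 3; *Mrpl20* had a log2 fold change of 0.18 ± 0.037. Of 50 ribosome biogenesis genes 6 rose and 3 fell, with *Ebna1bp2* at 0.17 ± 0.03. In that list 1 rose without *gdf6Y* replicate 5 and 22 without *gdf6Y* replicate 1, most other samples also moved the count by over 1.5 times, and none fell with the length correction.

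Of 79 nuclear-encoded respiratory chain genes 10 rose, or 7 with the length correction. The number was 3 to 5 without *gdf6Y* replicate 5 or 3 or without EV replicate 2 or 5, and 21 without EV replicate 1 or *gdf6Y* replicate 2. *Ndufa5*, a complex I subunit, had a log2 fold change of 0.18 ± 0.041. Of 7 genes of the mitochondrial genome 5 rose. *mt-Cytb* was at 36358, 57312, 55948, 64523 and 64217 in *gdf6Y* against 37146 to 52377 (median 46426) in EV, and *mt-Nd4* at 12099.5, 19239.5, 18222, 22200.0 and 20938 against 12244 to 17082 (median 15317). Replicate 1 of *gdf6Y* was the lowest of all 11 samples for both genes, below every EV sample, and the other 4 were above every EV sample. Against del9, 5 of the 7 were higher in *gdf6Y*. DESeq2 called neither (adjusted p = 0.184 and 0.179) and none of the 7. As a share of all counts, mitochondrially encoded transcripts made up 1.55% ± 0.147 (SD, n = 6) in EV and 1.71% ± 0.330 (SD, n = 5) in *gdf6Y* (exact permutation test, two-sided, p = 0.292), and with single samples left out the difference ran from 0.0859 to 0.30 percentage points and p from 0.00952, without *gdf6Y* replicate 1, to 0.571. Of 31 proteasome subunits 8 rose, or 2 with the length correction, 1 without *gdf6Y* replicate 5, 3 without *gdf6Y* replicate 3 and 4 without EV replicate 3 or 4. *Psma6* had 0.11 ± 0.029, and lost its call with the correction (adjusted p = 0.202).

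Of 50 DNA replication and nucleotide synthesis genes 9 rose and 1 fell, and the median log2 fold change was 0.06. *Rrm2*, the regulated subunit of ribonucleotide reductase, was at 9404, 10401, 9820.4, 9836 and 10037 in *gdf6Y* against 8085 to 8909.8 (median 8129) in EV, without overlap. Its log2 fold change was 0.25 ± 0.026 against EV (adjusted p = 4.90e-17) and 0.14 against del9 (adjusted p = 3.34e-04). *Orc6*, part of the origin recognition complex, rose by 0.16 ± 0.032, and *Pole*, the catalytic subunit of DNA polymerase ε with 12127 exonic bases, had a log2 fold change of -0.16 ± 0.03. *Pcna* had 0.05 (SE 0.0281, adjusted p = 0.402) and *Mcm2* 0.07 (SE 0.0264, adjusted p = 0.104). The number that rose was 5 without *gdf6Y* replicate 3 or 5 and 18 without *gdf6Y* replicate 1; it was 31 in del9 against EV. Of 60 mitosis genes 1 rose (1.67%), *Birc5* (survivin, 0.12 ± 0.03), and 7 fell (11.7%), among them *Mki67* (-0.18 ± 0.026, not called by DESeq2, adjusted p = 0.0733). Over all genes 3.50% rose and 7.02% fell.

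Of 30 ER chaperones and unfolded protein response genes 6 rose and 1 fell. *Creld2*, a chaperone of the secretory pathway, was at 2737, 2656, 2659.9, 2688 and 2718 in *gdf6Y* against 2152 to 2416 (median 2275) in EV, a log2 fold change of 0.25 ± 0.031 (adjusted p = 9.89e-13), and at 2853 ± 105 (SD, n = 5) in del9. *Hspa5* (BiP), the main Hsp70 of the endoplasmic reticulum, was at 44875 ± 874 (SD, n = 5) in *gdf6Y* and 40788 ± 1085 (SD, n = 6) in EV. Both chaperones were above EV without overlap, and neither differed from del9 in edgeR's test (log2 fold changes -0.08, adjusted p = 0.433, and -0.04, adjusted p = 0.654). The sensor *Atf6* was the member that fell (-0.14 ± 0.028). Among 32 Atf4 targets 1 rose and 6 fell. The number that fell was 11 without *gdf6Y* replicate 1. It was 4 without EV replicate 1 or 4 or without *gdf6Y* replicate 3 or 5. *Slc7a11*, the cystine carrier, was at 905, 798, 789.5, 832 and 729.6 against 935 to 1050.0 (median 1003) in EV, a log2 fold change of -0.30 ± 0.04, and *Chac1*, which degrades glutathione, had -0.19 ± 0.034. *Atf4* itself had 0.03 (SE 0.0255, adjusted p = 0.570) and *Asns* -0.05 (SE 0.0260, adjusted p = 0.349). *Ddit3* (CHOP) was the member that rose, by 0.12 ± 0.039 (adjusted p = 0.0420), and lost its call in DESeq2 (adjusted p = 0.0670) and in 7 of the 11 fits with a sample left out.

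Of 23 long noncoding RNAs of high abundance 3 fell. *Malat1*, a nuclear speckle RNA, was at 6008, 3652, 3748, 3833 and 3834 in *gdf6Y* against 4806 to 6178 (median 5251) in EV. Its replicate 1 lay among the EV samples and the other 4 below all of them, and DESeq2 did not call it (adjusted p = 0.118). *Neat1*, the paraspeckle scaffold, had a log2 fold change of -0.20 ± 0.033 against EV, which DESeq2 did not call (adjusted p = 0.272), and it was higher than in del9 by 0.21 (adjusted p = 1.41e-06). Of 40 splicing and speckle factors 6 rose and 2 fell, and 3 rose without *gdf6Y* replicate 5, 13 without *gdf6Y* replicate 1 and 11 with the length correction; *Srrm2* had -0.25 ± 0.026. Of 23 glycolysis genes 3 rose and 1 fell, and 5 rose without *gdf6Y* replicate 2 and 6 with the length correction, with *Ldha*, lactate dehydrogenase A, at 0.11 ± 0.023.

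For the other lists the counts are given beside the share over all genes, 3.50% upregulated and 7.02% downregulated. Upregulated members made up 20% of Nrf2 targets, 13.8% of immediate early factors, 13.6% of FGF and MAPK feedback genes and 13% of hypoxia-responsive genes. Downregulated members made up 7.41% of cholesterol synthesis and 5.56% of lysosome and autophagy genes, near the share over all genes. Upregulated and downregulated members numbered 4 and 3 of 29 immediate early transcription factors, 3 and 2 of 22 FGF and MAPK feedback genes, 3 and 2 of 23 hypoxia-responsive genes, 5 and 1 of 25 Nrf2 targets, and 2 and 1 of 24 p53 targets. They numbered 0 and 2 of 27 cholesterol synthesis genes. For the remaining lists they numbered 0 and 3 of 25 fatty acid genes, 0 and 2 of 20 aminoacyl-tRNA synthetases, 1 and 1 of 28 heat shock genes, and 0 and 2 of 36 lysosome and autophagy genes. They were 3 and 2 of 32 forkhead and mesenchymal transcription factors, 0 and 3 of 24 members of the Zfp36 family and the CCR4-NOT complex, and 1 and 0 of 12 histone genes. These small counts moved by over 1.5 times with single samples left out. Upregulated members ran from 2 to 7 for immediate early factors, from 1 to 5 for FGF and MAPK feedback, from 2 to 8 for hypoxia, from 2 to 5 for Nrf2, from 1 to 2 for p53, from 1 to 3 for heat shock and from 1 to 3 for histones. Downregulated members ran from 1 to 2 for FGF and MAPK feedback, from 0 to 4 for hypoxia, from 1 to 3 for cholesterol synthesis and for fatty acid genes, from 1 to 2 for aminoacyl-tRNA synthetases, from 0 to 4 for lysosome and autophagy, from 1 to 3 for forkhead genes and from 3 to 5 for the Zfp36 family and CCR4-NOT. The ends of these ranges included the fits without *gdf6Y* replicate 1 (7 immediate early factors up), *gdf6Y* replicate 2 (8 hypoxia genes up) and *gdf6Y* replicate 5 (no lysosome gene down). With the length correction 2 immediate early factors and 2 Nrf2 targets were upregulated. *Foxs1*, a forkhead gene of low level, had a log2 fold change of 0.58 ± 0.12 at 87.7 ± 19.5 (SD, n = 5) against 58.8 ± 14.5 (SD, n = 6) normalized counts, and was also higher in del9 than in EV (log2 fold change 0.52).

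*Zfp36l2*, an RNA-binding protein that promotes mRNA decay, was at 7607, 7804, 8122, 7953 and 7726 in *gdf6Y* against 8637 to 9113 (median 8789.7) in EV, without overlap, a log2 fold change of -0.17 ± 0.026, and its log2 fold change against del9 was -0.17 (adjusted p = 8.87e-06). Its fall in these cells had already been reported by the paper. *Dusp7*, a phosphatase of Erk kinases, had -0.16 ± 0.033 against EV and -0.16 against del9 (adjusted p = 0.00160). *Tcim* fell too, at -0.36 ± 0.087 relative to EV and -0.35 relative to del9 (adjusted p = 0.0133). In contrast, *Edn1*, the vasoactive peptide endothelin-1, was at 268, 262, 249.5, 277 and 254 in *gdf6Y* against 326 to 358 (median 329) in EV, and at 262 ± 17.4 (SD, n = 5) in del9. *Zbed6*, a repressor derived from a transposon, had -0.36 ± 0.034 against EV and -0.08 (adjusted p = 0.541) against del9. Of the 24 genes with the largest log2 fold changes among those with a mean count of at least 50 and no overlap, 12 in each direction, 13 also passed the test against del9 in the same direction, 9 among the upregulated 12 and 4 among the downregulated 12.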

How the data were processed

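RNA was sequenced as poly(A)-selected, strand-specific single-end libraries from 6 EV, 5 *gdf6Y* and 5 del9 samples. The authors extracted and collapsed molecular identifiers with UMI-tools, aligned reads to GRCm39 with STAR 2.7.10a (Ensembl 107) and deposited raw counts per gene from featureCounts 2.0.3, set to reverse strand and to reads mapping to 1 place and 1 gene, so that genes with near-identical copies lose reads. Replicate 6 of *gdf6Y* and of del9 was left out by the authors for quality. Here genes with at least 1 count in any of the 11 samples were fitted with edgeR 4.0.16 (R 4.3.3; TMM scaling, quasi-likelihood test, Benjamini-Hochberg adjustment over all 26316 genes, threshold 0.05). Fits against del9 were made the same way. Exonic gene lengths were taken from GENCODE on the same build (Ensembl release 116), which held 56017 of the 56748 gene IDs. Each length was the union of all annotated exons of the gene. For the length correction, a smooth trend on log2 length (spline with 5 degrees of freedom, from genes averaging at least 50 counts) was taken out of each library through offsets.

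Named genes were the 12 in each direction with the largest log2 fold change among called genes averaging at least 50 counts and groups that do not overlap, the 6 with the smallest adjusted p among these, up to 4 called members per list and direction, and defining members that were not called; a few further list members were named after their values were seen. The members of the comparison and the lists were chosen with earlier results of these data known. Alternatives were DESeq2 1.42.0, other scalings and filters, a fit of all 3 groups, a replicate block, the length correction and leaving out each sample. The scripts were tested on simulated data. Results for a few list members are not reported here.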

Additional observations from a re-analysis of the deposited data

Results flagged for a closer look

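In each group of 5 or 6 samples, the highest or lowest value was compared with its nearest neighbour (Dixon's ratio of that gap to the range, set against its 95% critical value). Of 218 groups of values 11 were past the critical value, and chance gives about 1 in 20.

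For 7 of these the sample apart was *gdf6Y* replicate 1 and the value was high. Its normalized count was 6008 for *Malat1* (3652 to 3834 in the other 4; ratio 0.923), 9925 for *Dync1h1* (6280 to 6990; 0.805), 2623 for *Fbn1* (1808 to 1969; 0.803), 7778 for *Dst* (4257 to 5084; 0.765), 3909 for *Col6a3* (2966 to 3198; 0.754), 11850 for *Hspg2* (7276 to 8478; 0.737) and 277 for *Hmcn1* (174.2 to 201.8; 0.732). The same sample was low for *Efnb2*, at 738.2 (839.5 to 863.3; 0.810).

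*gdf6Y* replicate 2 was low for *Gbp2*, at 537.8 (612.9 to 627.1; 0.841). In EV, replicate 5 was low for *Smad9*, at 138.3 (156.4 to 166.2; 0.649), and replicate 3 was high for *Vcan*, at 5990 (5280 to 5542; 0.632).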

How the results depend on the processing

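Over all 26316 genes, 448 were upregulated and 890 downregulated. DESeq2 gave 525 and 755 (367 and 675 of the calls on genes averaging 10 counts or more shared). Testing only genes averaging 10 counts or more gave 457 and 731, and the length correction 496 and 612. With single samples left out, 235 to 718 were upregulated and 559 to 1033 downregulated. Both lowest counts came without *gdf6Y* replicate 5 and both highest without *gdf6Y* replicate 1. With the replicate number as a block, which leaves out EV replicate 6, 912 were upregulated and 1202 downregulated, and with the block and the length correction 868 and 892. The numbers were not taken as pairs: the correlation of deviations was above 0.1 in 4 of 5 pairs (-0.015 to 0.180), and 3 of 5 *gdf6Y* samples correlated best with the EV sample of their number. For 105 named genes under all alternatives, 2110 of 2200 values kept direction and call, 90 kept the direction without the call, and none reversed. These genes were all called by the main fit and the alternatives reuse the same samples, so much of this agreement was built in. DESeq2 gave an adjusted p for 100 of them and did not call 18. The rank correlation between length and log2 fold change was -0.40 among genes averaging at least 100 counts, and -0.32 to -0.27 with single samples left out. The difference in mitochondrial share was 0.0859 to 0.30 percentage points with single samples left out. The cause of these shifts was not tested. Most called differences were under 0.25 on the log2 scale, and genes with a mean count under 10 gave 7 upregulated and 6 downregulated calls.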

Other observations

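Among 450 pseudogenes with a mean count of at least 10, 14 (3.11%) were upregulated and 1 (0.222%) was downregulated, and among 754 long noncoding RNAs 2 were upregulated and 7 downregulated. The median exonic length was 787.5 bases for the pseudogenes and 6562.5 for the 11216 protein-coding genes, of which 423 were upregulated and 875 downregulated. Since reads that map to several places were discarded, counts of pseudogenes and of their parent genes are uncertain.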
